A study of Mus musculus with 9 samples.

Results

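The tumour suppressor p53 is a transcription factor that is held at a low level by the ubiquitin ligase Mdm2 and is stabilised when DNA is broken or when a cell is otherwise stressed. Once stabilised, it raises a set of target genes that stop the cell cycle, repair or remove the damaged cell, and, through Mdm2 itself, switch p53 off again. Because cosmic radiation and oxidative stress are parts of the space environment, these target genes are a common readout of DNA damage in flown tissue. The 9 genes described here are Cdkn1a, Ccng1 and Gadd45a, which act on the cell cycle, Mdm2, which closes the feedback loop, Bax, Bbc3 and Trp53inp1, which favour cell death, Phlda3, which restrains AKT signalling, and Sesn2, a stress-induced brake on growth signalling. They were chosen by name as known p53 target and DNA damage genes, and all 9 were found among the 34866 genes of the deposited table.

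The data were RNA-seq profiles of livers from 9 male wild-type C57BL/6J mice, 3 per group, bought at 5 weeks of age. MG mice lived in space for 30 days in microgravity, A1G mice lived in space for 30 days in a centrifuge that gave artificial gravity of 1 g, and GC mice were kept on Earth as controls. MG and A1G mice flew together, and the GC experiment was run afterwards on the ground, so flight cannot be told apart from the time and place of housing. Flown mice were dissected after their return by capsule and had lived in air richer in carbon dioxide than GC mice, so re-entry and air composition cannot be told apart from flight either. Each library came from the liver of 1 mouse, and a whole-tissue homogenate does not separate fewer cells of a type from less RNA per cell.

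Libraries held 13189515 to 20303599 estimated counts in MG mice, 19490377 to 23738049 in A1G mice and 17399418 to 23506273 in GC mice. Between mice of the same group, Pearson's r of log2 CPM ran from 0.969 to 0.983 across genes. A chi-square of the counts, whose value per gene is near 1 where 2 libraries differ by counting error, was between 17.5 and 84.4, highest for A1G replicate 1 against the others of its group (84.4 and 84). The 6 hepatocyte markers (Alb, Apoa1, Ttr and others) summed to 53900 to 60800 TPM in MG, 55700 to 58000 TPM in A1G and 46900 to 55700 TPM in GC livers, as a liver label asks. In the edgeR fit over 13193 genes, 439 genes passed an adjusted p of 0.05 in MG vs. GC (155 higher), 85 in A1G vs. GC (23 higher), 10 in MG vs. A1G (7 higher) and 409 in flown mice (MG and A1G) vs. GC (131 higher). Scaling by library size alone gave 350 higher of 542, 48 of 73, 1 of 1 and 442 of 614, and the median of all genes then lay at 0.14, 0.18, -0.05 and 0.16 on the log2 scale. The comparisons against GC share their 3 control livers and are not independent of each other.

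The p53 protein binds a response element made of 2 copies of a 10-base unit, here called the p53 decamer, separated by up to 13 bases. Stretches before the RefSeq start of 5 of the 9 genes are shown because a decamer was found in them. The genes were chosen as known p53 targets, so a p53 decamer is not independent of that choice. In RefSeq promoter windows (GRCm38.p6, 250 bases before to 50 bases after a start), 8 of the 9 genes were matched, with 11 windows. The decamer consensus reads the same on both strands and was found in 8.36% of all 32851 windows. A pair within 13 bases was found in 0.0731% of windows, 24 in all. Of the 11 windows, 5 held a decamer, and 1 of these, that of Cdkn1a, held a pair. Capitals mark the decamers, and each stretch is written 5′ to 3′ on the strand of its gene.
Cdkn1a: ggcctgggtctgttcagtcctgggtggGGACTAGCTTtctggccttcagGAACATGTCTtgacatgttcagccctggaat
Mdm2: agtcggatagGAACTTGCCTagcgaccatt
Ccng1: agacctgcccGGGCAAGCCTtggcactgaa
Bax: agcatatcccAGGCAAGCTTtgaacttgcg
Gadd45a: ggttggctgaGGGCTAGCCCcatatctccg

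The Cdkn1a stretch is chr17:29090879-29090958 on the + strand, 100 to 21 bases before the RefSeq start, and its 2 marked decamers lie 12 bases apart. The unit tgacatgttc, which directly follows the second of them, departs from the consensus only at its first base and was therefore not marked. Which of these units form the response element was not tested. The Mdm2 stretch is chr10:117710925-117710954 on the - strand, with its decamer beginning 186 bases before the start. Those of Ccng1 (chr11:40755452-40755481, - strand, 185 bases before the start), Bax (chr7:45467080-45467109, - strand, 201 bases) and Gadd45a (chr6:67037428-67037457, - strand, 40 bases) each hold 1 decamer. The Gadd45a stretch lies before the RefSeq start but inside the gene as GENCODE M21 draws it, at its 5′ end. No decamer was found in the single windows of Phlda3 and Sesn2, in the 3 windows of Bbc3 or in a second, more downstream window of Cdkn1a. A match is a match of letters, and binding was not measured in these livers.

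None of the 9 genes passed the test in any comparison. In edgeR, 0 of 9 were called in MG vs. GC, where 3.33% of all genes tested were called, 0 of 9 in A1G vs. GC (0.644%), 0 of 9 in MG vs. A1G (0.0758%) and 0 of 9 in flown mice vs. GC (3.1%). DESeq2 and limma on TPM also called 0 of 9 in each of the 4 comparisons. DESeq2 gave no adjusted p for Phlda3 in A1G vs. GC and in flown mice vs. GC, so it could not be called there. At an unadjusted p under 0.05, edgeR listed 2 genes in MG vs. GC (Bax and Bbc3, both lower), 2 in A1G vs. GC (Cdkn1a and Trp53inp1, both lower), 1 in MG vs. A1G (Trp53inp1, higher) and 1 in flown mice vs. GC (Bbc3, lower). The share of all genes tested under that cut was not counted, so such counts, here and below, are a description only. The adjusted p of the 9 genes ran from 0.219 to 0.783 in MG vs. GC, from 0.234 to 0.74 in A1G vs. GC, from 0.295 to 0.99 in MG vs. A1G and from 0.165 to 0.684 in flown mice vs. GC. Their median log2 fold changes were -0.28, -0.28, -0.02 and -0.25 in the same order, beside medians of 0.00, 0.00, -0.01 and 0.00 over all genes tested.

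The intervals of the fold changes in the TMM fit bound how much these genes could have differed on that scale. In flown mice vs. GC, the upper 95% limit lay below a 2-fold rise (a log2 fold change of 1) for 9 of 9 genes, with the highest, 0.98, for Gadd45a. Gadd45a was 0.62 ± 0.24 with library size alone and 0.76 ± 0.24 on log2(TPM + 1), where a 2-fold rise lay within 2 SE, so that the bound on it depends on the scaling. It lay below a 2-fold rise for 8 of 9 in MG vs. GC, 8 of 9 in A1G vs. GC and 6 of 9 in MG vs. A1G. The lower limit lay above a 2-fold fall for 6 of 9 genes in each comparison against GC and for 8 of 9 in MG vs. A1G. Cdkn1a, Bbc3 and Phlda3 were the exceptions against GC, with lower limits of -1.39, -1.60 and -1.88 in flown mice vs. GC.

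**Figure D1:**
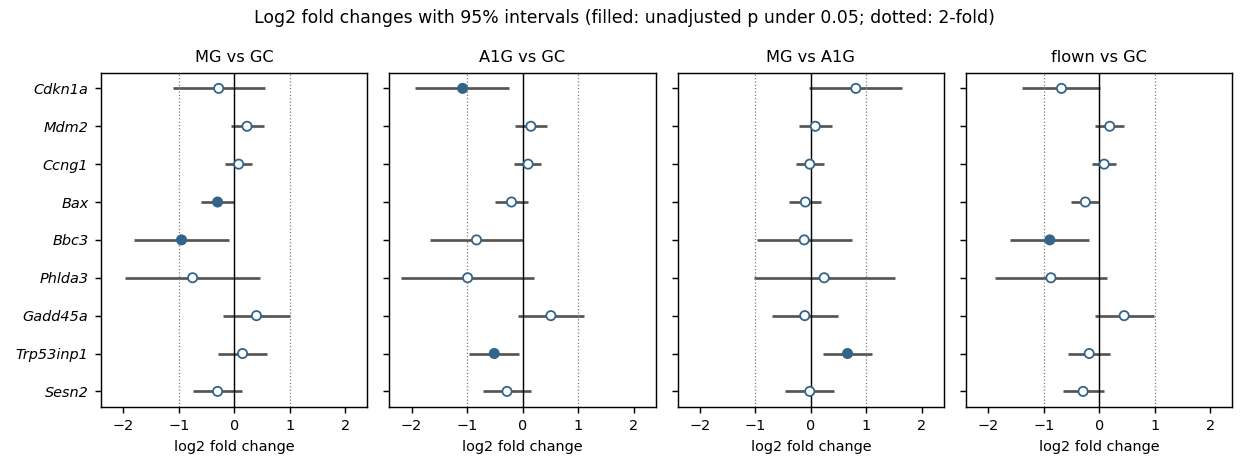
Log2 fold changes (points) of the 9 genes with 95% intervals (lines) in the 4 comparisons, from edgeR over all 9 libraries; filled points have an unadjusted p under 0.05 and dotted lines mark a 2-fold difference. Intervals are narrow for Ccng1, Mdm2 and Bax and wide for Cdkn1a, Bbc3 and Phlda3, and no gene passed an adjusted p of 0.05.

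Cdkn1a encodes p21, the Cdk inhibitor through which p53 arrests the cell cycle, and lies at chr17:29090976-29100727 on the + strand (GRCm38, GENCODE M21). Its level was 28.4, 18.5 and 45.8 TMM-normalised CPM (counts scaled to library size, not to length) in the 3 MG livers, 17.2, 18.6 and 16.9 CPM in the A1G livers, and 35.2, 59.3 and 17.0 CPM in the GC livers. The A1G livers lay within 1.1-fold of each other at the low end of the range, whereas GC livers spread over 3.5-fold and MG livers over 2.47-fold. All groups overlapped in CPM, GC replicate 3 being as low as the A1G livers and MG replicate 2 level with A1G replicate 2. In TPM every MG liver (14 or more) was above every A1G liver (13.5 or less), and both overlapped GC livers. The log2 fold change was -1.08 ± 0.39 (SE) in A1G vs. GC (adjusted p = 0.234, edgeR), -0.28 ± 0.38 in MG vs. GC (adjusted p = 0.756, edgeR) and 0.81 ± 0.39 in MG vs. A1G (adjusted p = 0.589, edgeR). The A1G vs. GC value was -0.57 without GC replicate 2, the highest liver, and -1.43 without GC replicate 3. Without a filter on low counts the same fold change passed, with an adjusted p of 0.0219 in edgeR. The MG vs. GC value was 0.24 without GC replicate 2, -0.62 without GC replicate 3 and -0.66 without MG replicate 3, and it was 0.11 on the log2(TPM + 1) scale. Its exons share positions with AC167363.2 on the opposite strand.

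Ccng1, which encodes cyclin G1, a p53 target that acts back on p53 through Mdm2, was the steadiest of the 9 genes in CPM (chr11:40748552-40755311, - strand). It measured 31.8, 34.5 and 30.3 CPM in MG, 34.8, 32.9 and 30.4 CPM in A1G and 28.0, 30.1 and 33.7 CPM in GC livers. The 3 groups overlapped in CPM, and all 9 values lay within 1.24-fold. In TPM it measured 12.2, 12.9 and 11.6 in MG and 13.8, 12.2 and 11.9 in A1G livers, against 7.82, 9.72 and 11.9 in GC livers, and the A1G livers lay above the GC livers, GC replicate 3 by a narrow margin. The log2 fold change was 0.09 ± 0.10 in flown mice vs. GC, with a 95% interval of -0.13 to 0.30.

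Gadd45a, a growth arrest gene whose protein binds PCNA and p21 and takes part in stress kinase signalling, lies at chr6:67035096-67037457 on the - strand. It measured 11.7, 7.0 and 6.38 CPM in MG, 11.3, 8.69 and 7.20 CPM in A1G and 8.06, 6.24 and 4.75 CPM in GC livers. Replicate 1 was the highest liver in each of the 3 groups, and the groups overlapped. Gadd45a had a log2 fold change of 0.40 ± 0.28 in MG vs. GC (adjusted p = 0.488, edgeR), 0.51 ± 0.27 in A1G vs. GC (adjusted p = 0.428, edgeR) and -0.11 ± 0.27 in MG vs. A1G (adjusted p = 0.957, edgeR). Its exons overlap those of E230016M11Rik on the opposite strand. Without MG replicate 1 the MG vs. GC value was 0.08.

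Mdm2, the ubiquitin ligase that marks p53 for destruction and is itself a p53 target, lies at chr10:117688875-117710758 on the - strand. It measured 36.8, 30.4 and 26.5 CPM in MG, 32.0, 30.4 and 26.4 CPM in A1G and 27.6, 27.2 and 25.1 CPM in GC livers. The lowest flown livers lay within the GC range, and the highest GC liver lay below 4 of the 6 flown ones. Mdm2 had a log2 fold change of 0.23 ± 0.14 in MG vs. GC (adjusted p = 0.394, edgeR), 0.15 ± 0.13 in A1G vs. GC (adjusted p = 0.65, edgeR) and 0.19 ± 0.12 in flown mice vs. GC (adjusted p = 0.412, edgeR), with an upper 95% limit of 0.45 in flown mice.

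Bax encodes the pore-forming protein of the outer mitochondrial membrane that executes mitochondrial cell death (chr7:45461697-45466898, - strand). It measured 15.1, 15.9 and 15.9 CPM in MG, 16.6, 17.8 and 15.9 CPM in A1G and 22.2, 19.4 and 16 CPM in GC livers. Every MG liver was below every GC liver, GC replicate 3 by a narrow margin, while A1G and GC livers overlapped. Bax had a log2 fold change of -0.30 ± 0.14 in MG vs. GC (adjusted p = 0.264, edgeR) and -0.20 ± 0.13 in A1G vs. GC (adjusted p = 0.534, edgeR). In TPM the same livers gave 28.2, 29.4 and 30.4 in MG against 31.2, 31.3 and 29.1 in GC, with overlap. Bax shares exons with Gm45808 on the same strand, to which the authors' quantification assigned 280 counts over the 9 libraries, against 3073 for Bax, so its counts depend on how shared reads were divided.

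Bbc3 encodes PUMA, a BH3-only protein that frees Bax and Bak, and had the lowest unadjusted p of the 9 genes in MG vs. GC and in flown mice vs. GC (chr7:16308393-16318205, + strand). It measured 4.62, 4.75 and 13.2 CPM in MG, 7.40, 7.84 and 8.84 CPM in A1G and 16, 8.17 and 18.8 CPM in GC livers. MG replicate 3 was 2.86 times the lowest MG liver, and GC replicate 2 lay among the A1G livers, so all groups overlapped. The fitted difference was -0.95 ± 0.39 (log2) in MG vs. GC (adjusted p = 0.219, edgeR), -0.83 ± 0.38 in A1G vs. GC (adjusted p = 0.354, edgeR) and -0.89 ± 0.32 in flown mice vs. GC (adjusted p = 0.165, edgeR). Without MG replicate 3, the shallowest library, it was -1.60 in MG vs. GC (adjusted p = 0.0251, edgeR) and -1.21 in flown mice vs. GC (adjusted p = 0.0209, edgeR), both past the threshold. Without MG replicate 1 or MG replicate 2 it was -0.69 in MG vs. GC. Without a filter on low counts the value in flown mice also passed (adjusted p = 0.0263, edgeR), and on the TPM scale it was -0.32 ± 0.30.

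Trp53inp1, whose protein enhances p53-dependent cell death and also acts in autophagy, is the member of lowest p in any comparison (chr4:11156431-11174379, + strand). It measured 44.8, 49.0 and 80.3 CPM in MG, 30.7, 38.7 and 40.6 CPM in A1G and 49.7, 47.7 and 59.6 CPM in GC livers. Every A1G liver lay below every MG and every GC liver in CPM, and MG replicate 3 was the highest of all 9. As log2 fold changes these differences were 0.66 ± 0.20 in MG vs. A1G (adjusted p = 0.295, edgeR), -0.51 ± 0.20 in A1G vs. GC (adjusted p = 0.282, edgeR) and 0.15 ± 0.20 in MG vs. GC (adjusted p = 0.758, edgeR). In TPM the A1G livers (9.21 to 11.7) overlapped the GC livers (9.56 to 13.6) and not the MG livers, and the A1G vs. GC value was -0.17 on log2(TPM + 1). The MG vs. GC value turned to -0.15 without MG replicate 3, and the MG vs. A1G value ran from 0.35 to 0.81 as libraries were left out in turn. The adjusted p of MG vs. A1G was 0.0876 in DESeq2 and 0.0507 in edgeR without a filter on low counts. It was 0.716 in limma on log2(TPM + 1) without a filter.

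Across genes, such separations of groups were frequent. The CPM of MG and GC livers did not overlap for 1 of the 9 genes (Bax, lower), beside 22.7% of all genes tested, and those of A1G and GC livers for 1 of 9 (Trp53inp1, lower), beside 19.4%. Those of MG and A1G livers did not overlap for 1 of 9 (Trp53inp1, higher), beside 15.4%. In flown mice against GC mice the CPM overlapped for 9 of 9 genes, where 9.35% of all genes tested did not overlap.

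Phlda3, a p53 target whose protein competes with AKT for membrane lipids, was the least abundant of the 9 genes (chr1:135766119-135769136, + strand). It had 12, 11 and 9 estimated counts in MG, 5, 18 and 12 in A1G and 28, 27 and 9 in GC livers. These are 0.693, 0.539 and 0.660 CPM in MG, 0.224, 0.904 and 0.480 CPM in A1G and 1.37, 1.24 and 0.528 CPM in GC livers. GC replicates 1 and 2 were the highest, GC replicate 3 lay among the flown livers, and the log2 fold change of -0.87 ± 0.46 in flown mice vs. GC (adjusted p = 0.338, edgeR) has a 95% interval of -1.88 to 0.14.

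Sesn2 encodes sestrin 2, which is raised by p53 and by amino acid stress and lowers mTORC1 activity (chr4:132492032-132510501, - strand). It measured 7.80, 7.84 and 9.82 CPM in MG, 9.91, 8.14 and 7.76 CPM in A1G and 12.1, 7.76 and 11.4 CPM in GC livers. GC replicates 1 and 3 were above all flown livers and GC replicate 2 was level with the lowest of them. Sesn2 had a log2 fold change of -0.29 ± 0.17 in flown mice vs. GC (adjusted p = 0.387, edgeR) and -0.02 ± 0.20 in MG vs. A1G (adjusted p = 0.99, edgeR).

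**Figure D2:**
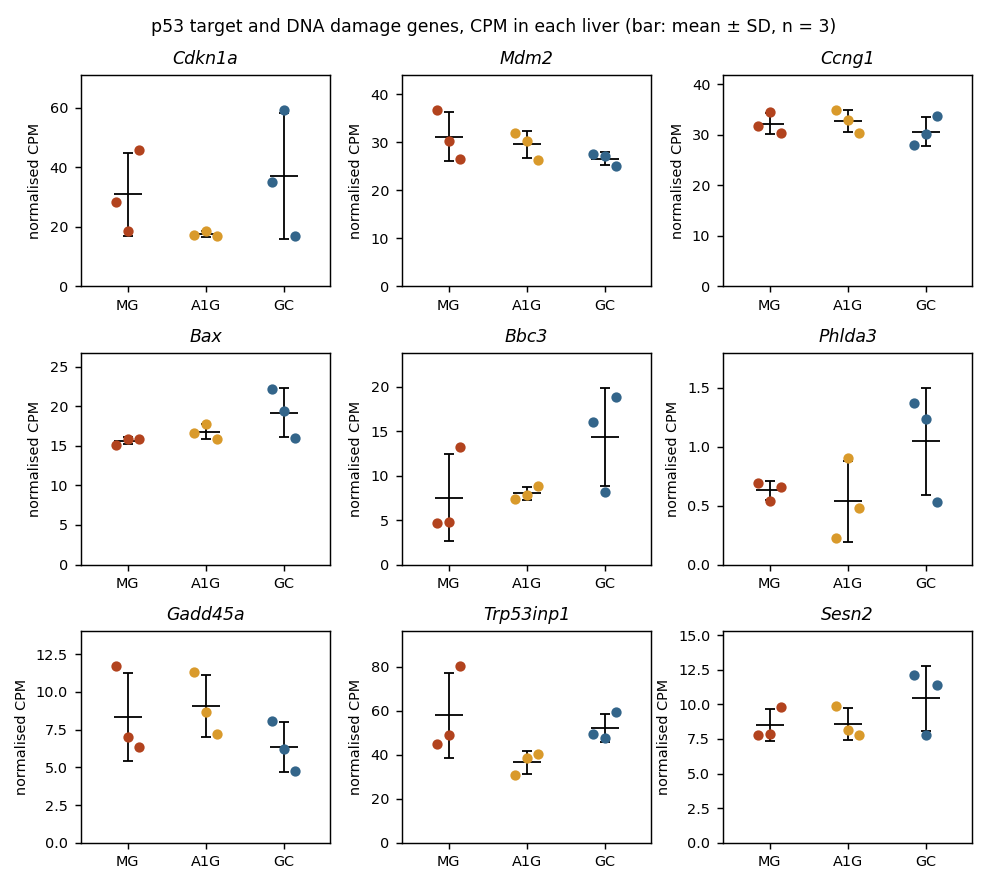
TMM-normalised CPM of the 9 genes (y axis, from 0) in each of 3 MG, 3 A1G and 3 GC livers (points), with the mean and SD as bars. Cdkn1a runs from 16.9 to 59.3 CPM with tight A1G livers, Bbc3 has 1 high MG liver at 13.2 CPM, and Ccng1 lies between 28.0 and 34.8 CPM in all livers.

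The 9 genes differed widely in how much they varied between mice of 1 group. The pooled within-group SD of log2 CPM was 0.64 for Cdkn1a, 0.62 for Bbc3 and 0.62 for Phlda3, larger than for 91.1%, 90.1% and 90.1% of all genes tested. It was 0.39 for Gadd45a, 0.31 for Trp53inp1 and 0.25 for Sesn2, and 0.23 for the median gene. Mdm2 (0.17), Bax (0.15) and Ccng1 (0.11) were steadier than the median gene, Ccng1 steadier than all but 9.81% of genes. No single mouse was high for every gene. MG replicate 3 was the highest MG liver for 5 of 9 genes and the lowest for 3, and GC replicate 1 was the highest GC liver for 5 of 9 and the lowest for 1.

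Length-scaled levels (TPM) allow the genes to be ordered. Over the 9 livers Bax was highest at 31.0 ± 2.03 TPM (mean ± SD, n = 9), above 80.2% of genes tested, and was followed by Cdkn1a at 20.2 ± 10.2 TPM. Mdm2 (14.9 ± 3.61), Trp53inp1 (12.5 ± 3.82), Bbc3 (11.7 ± 4.42), Ccng1 (11.6 ± 1.77) and Gadd45a (11.4 ± 4.56 TPM) followed, and neighbours among these 5 lay within 1 SD of each other. Sesn2 (3.33 ± 0.528 TPM) and Phlda3 (0.77 ± 0.388 TPM) lay apart at the low end.

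For Mdm2 and Gadd45a, whether flown and GC livers overlapped depended on the scale. In TPM, Mdm2 measured 21.5, 14 and 14.7 in MG and 19.3, 14.4 and 15.9 in A1G livers, against 11.0, 11.9 and 11.1 in GC livers. Gadd45a measured 18.9, 11.0 and 9.40 TPM in MG and 18.3, 12.8 and 10.1 TPM in A1G livers, against 8.55, 7.36 and 5.93 TPM in GC livers. Both genes thus lay above GC in each flown liver in TPM and overlapped GC in CPM. The share of all genes tested that lay higher without overlap in flown mice was 15.1% in TPM, against 2 of the 9 genes here, and the median of all genes moved by 0.24 on the log2(TPM + 1) scale. Relative to that shift, the fold change in flown mice vs. GC was 0.26 for Mdm2 (0.50 ± 0.16 before subtraction, adjusted p = 0.084, limma) and 0.52 for Gadd45a (0.76 ± 0.24 before subtraction, adjusted p = 0.0844, limma), close to the 0.19 and 0.45 of the CPM fit. With the same shift removed, Bax was -0.21 and Trp53inp1 -0.14 in flown mice vs. GC (0.03 and 0.09 before subtraction), beside -0.25 and -0.18 in the CPM fit.

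**Figure D3:**
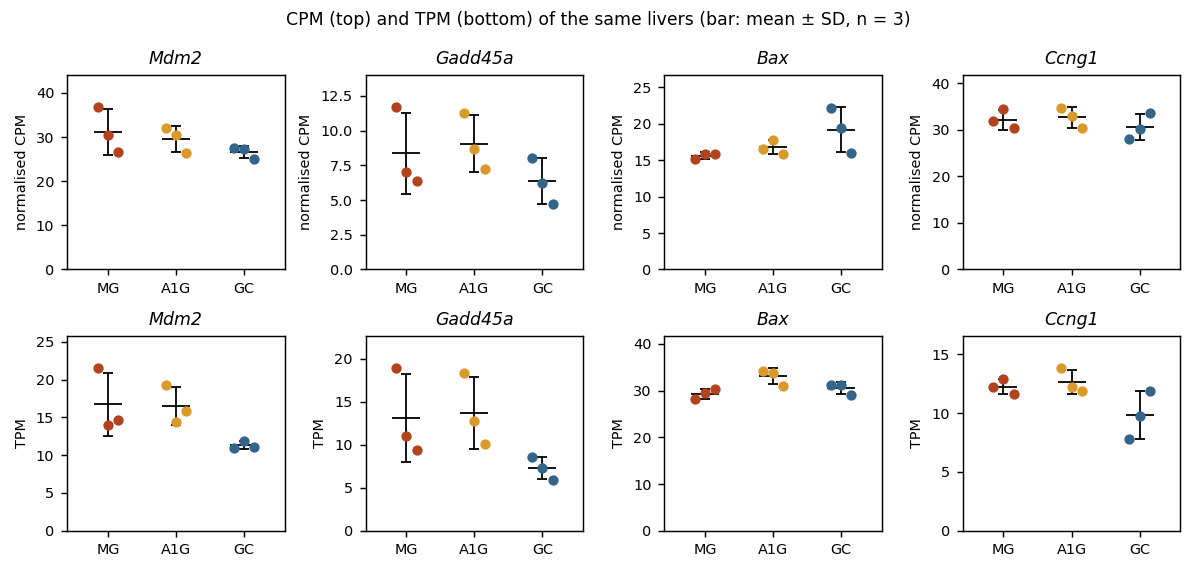
CPM (top row) and TPM (bottom row) of Mdm2, Gadd45a, Bax and Ccng1 in the same 3 MG, 3 A1G and 3 GC livers (points), with mean and SD as bars and axes from 0. GC livers lie below all flown livers for Mdm2 and Gadd45a in TPM (11.9 TPM or less for Mdm2) but not in CPM, and every MG liver is below every GC liver for Bax in CPM but not in TPM.

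Trp53, the gene of p53 itself, was looked at for its role and not by the rule for named genes. It measured 18.0, 16.7 and 14.8 CPM in MG, 19.6, 14.1 and 11.7 CPM in A1G and 19.5, 16.1 and 16.8 CPM in GC livers, with overlap of all groups. Its log2 fold change against GC was -0.08 ± 0.18 in MG livers (adjusted p = 0.86, edgeR) and -0.21 ± 0.18 in A1G livers (adjusted p = 0.636, edgeR). p53 is governed mainly through its protein, which was not measured.

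Around the 9 genes, called genes of the p53 pathway were counted list by list. The share of all genes tested that edgeR called ran from 0.0758% to 3.33% over the 4 comparisons. Lists this short cannot show whether fewer of their genes passed than that. Among 22 regulators of p53, 21 were tested, and 1 passed: Hipk2, a nuclear kinase that phosphorylates p53 after DNA damage, rose in MG, in A1G and in all flown mice against GC mice, while 0 passed in MG vs. A1G in edgeR, where 0 of 21 had an unadjusted p under 0.05 and DESeq2 and limma called 0. Hipk2 measured 47.7, 45.3 and 43.6 CPM in MG and 66.3, 34.7 and 53.8 CPM in A1G livers, against 12.4, 17.3 and 27.8 CPM in GC livers. All 6 flown livers were above all 3 GC livers. Hipk2 had a log2 fold change of 1.26 ± 0.27 in MG vs. GC (adjusted p = 0.0288, edgeR), 1.44 ± 0.27 in A1G vs. GC (adjusted p = 0.0458) and 1.35 ± 0.25 in flown mice vs. GC (adjusted p = 0.0137). The A1G vs. GC call was kept in 8 of 17 alternatives and was lost in limma on log2(TPM + 1), which called 0 regulators there. In MG vs. GC, A1G vs. GC and flown mice vs. GC, leaving out 1 library in turn kept the call in 4 of 9, 3 of 9 and 7 of 9 fits in that order, with the highest adjusted p, 0.124, 0.198 and 0.0884, without GC replicate 2. It was lost in each of these comparisons without GC replicate 1 or 2, in MG vs. GC also without any 1 of the MG livers, and in A1G vs. GC also without MG replicate 1 or 2 or A1G replicate 1 or 3. The log2 fold change against GC was 1.03 or more in every alternative.

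Among 30 other p53 target genes, 24 were tested. In flown mice vs. GC, 1 fell, Fdxr, which encodes the mitochondrial ferredoxin reductase, and 0 rose. EdgeR called 0 in the other 3 comparisons, with 5, 3 and 0 at an unadjusted p under 0.05 in MG vs. GC, A1G vs. GC and MG vs. A1G, all of them lower. DESeq2 called 2, 0 and 0 there, both lower, and limma 0, 0 and 0. In flown mice vs. GC DESeq2 called 1, lower, and limma 1, higher, and 0 lower. The median log2 fold change of the list was 0.03, 0.13 and -0.06 in the same comparisons and 0.07 in flown mice vs. GC. Fdxr measured 12.6, 12.1 and 14.4 CPM in MG and 12.1, 13.1 and 14.8 CPM in A1G livers, against 21.9, 22 and 15.4 CPM in GC livers. The 6 flown livers lay below the 3 GC livers, GC replicate 3 only just above them. Fdxr had a log2 fold change of -0.59 ± 0.14 (adjusted p = 0.0387, edgeR), and the call was kept in 2 of 9 fits with 1 library left out, those without MG replicate 3 or GC replicate 3 (-0.50 and adjusted p = 0.221 without GC replicate 2). The adjusted p was 0.0788 with library size alone (-0.42) and 0.215 in limma on log2(TPM + 1) (-0.23).

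Of the 10 Gadd45, sestrin and Cdk inhibitor relatives of the members, all were tested and 0 passed in any comparison in edgeR, with 3, 2, 3 and 3 at an unadjusted p under 0.05 in MG vs. GC, A1G vs. GC, MG vs. A1G and flown mice vs. GC. DESeq2 called 1 in MG vs. GC (Gadd45b, higher) and 0 in the other comparisons, and limma called 0 in all 4. Gadd45b had the lowest p of them in MG vs. GC. It measured 3.23, 4.11 and 3.08 CPM in MG, 3.14, 0.703 and 0.760 CPM in A1G and 0.977, 1.24 and 0.646 CPM in GC livers. All MG livers were above all GC livers and A1G replicate 1 lay with the MG livers, and the log2 fold change of 1.86 ± 0.53 in MG vs. GC had an adjusted p of 0.0868 in edgeR (0.00862 without A1G replicate 1, the library that stands apart, 0.0115 without a filter on low counts and 0.0131 in DESeq2). Gadd45g measured 9.41, 12.4 and 22.9 CPM in MG, 10.3, 49.7 and 42.1 CPM in A1G and 7.52, 9.50 and 19.8 CPM in GC livers, with overlap of all groups (1.48 ± 0.52 in A1G vs. GC, adjusted p = 0.233, edgeR).

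Of the 13 further genes of the Bcl2 family, to which Bax and Bbc3 belong, all were tested and 0 passed in any comparison in edgeR, with 3, 1, 0 and 2 at an unadjusted p under 0.05 in the 4 comparisons, all lower. DESeq2 called 1 in MG vs. GC and 1 in flown mice vs. GC, both lower, and limma called 0. Bok, a relative of Bax, measured 4.22, 4.26 and 7.62 CPM in MG and 3.14, 8.84 and 7.16 CPM in A1G livers, against 8.84, 12.4 and 14.6 CPM in GC livers. A1G replicate 2 was level with the lowest GC liver, and the other flown livers were below it. The log2 fold change in flown mice vs. GC was -1.04 ± 0.29 (adjusted p = 0.0855, edgeR). Bcl2l1, which encodes the survival protein Bcl-xL, was -0.42 ± 0.12 in MG vs. GC (adjusted p = 0.0907, edgeR).

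Of 49 DNA repair genes 47 were tested. In MG livers 1 rose against GC, Ung, the uracil DNA glycosylase that opens base excision repair, and 0 fell. EdgeR called 0 in A1G vs. GC, MG vs. A1G and flown mice vs. GC, with 5, 3 and 10 at an unadjusted p under 0.05. DESeq2 and limma called 0 in the A1G vs. GC and MG vs. A1G comparisons and 1 each, higher, in flown mice vs. GC. Between MG and GC livers DESeq2 called 1 higher and 1 lower, and limma 0. The median of the list was -0.01, -0.00, -0.01 and 0.03 in the 4 comparisons. Ung measured 9.18, 9.16 and 7.48 CPM in MG, 5.69, 3.87 and 4.96 CPM in A1G and 3.76, 2.25 and 4.34 CPM in GC livers. MG livers were above all others, and A1G and GC livers overlapped. The log2 fold change was 1.33 ± 0.26 in MG vs. GC (adjusted p = 0.0162, edgeR) and 0.83 ± 0.25 in MG vs. A1G (adjusted p = 0.285). The call in MG vs. GC was lost without MG replicate 1, MG replicate 2 or GC replicate 2 (highest adjusted p = 0.0679) and on the TPM scale (1.18, adjusted p = 0.0923, limma). The base excision ligase Lig3 was 0.35 ± 0.10 in A1G vs. GC (adjusted p = 0.172, edgeR).

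Genes of DNA replication and division, which p21 represses through the RB pathway, had fitted values below 0 for most genes in MG vs. GC. A link to Cdkn1a, which was -0.28 ± 0.38 in that comparison, was not tested. Of 24 listed genes 16 were tested, and 14 of the 16 had a fitted value below 0 in MG vs. GC. Their median was -0.98, beside 0.00 over all genes tested. In all, 1 fell in MG vs. GC (Rrm2) and 2 fell in flown mice vs. GC (Rrm2 and Mki67), whereas edgeR called 0 between A1G and GC livers and 0 between MG and A1G livers, with 2 and 4 at an unadjusted p under 0.05. In those comparisons DESeq2 called 0 and 2, both lower, and limma called 0. Rrm2, the small subunit of ribonucleotide reductase, measured 2.66, 3.67 and 4.62 CPM in MG, 5.11, 6.63 and 7.0 CPM in A1G and 12.7, 9.69 and 7.87 CPM in GC livers. No 2 groups overlapped, and the log2 fold change was -1.47 ± 0.25 in MG vs. GC (adjusted p = 0.00873, edgeR), past the threshold in 17 of 17 alternatives. In flown mice vs. GC it was -1.08 ± 0.20 (adjusted p = 0.0155), lost without GC replicate 1 (-0.88, adjusted p = 0.109) or GC replicate 2 (-1.11, adjusted p = 0.0727). Mki67, the proliferation marker Ki-67, measured 0.289, 0.245 and 0.806 CPM in MG and 0.448, 0.201 and 0.360 CPM in A1G livers, against 1.71, 1.97 and 1.12 CPM in GC livers. All flown livers were below all GC livers (-2.08 ± 0.43, adjusted p = 0.0262, edgeR), and the call was lost without MG replicate 1, MG replicate 2, A1G replicate 3, GC replicate 1 or GC replicate 2 (highest adjusted p = 0.166). Mki67 had 4 to 11 estimated counts in flown livers and 19 to 43 in GC livers, which limits its precision. Its value in flown mice vs. GC ran from -2.41 to -1.89 as libraries were left out in turn. Over all alternatives it reached -0.15, on log2(TPM + 1) without a filter, where its TPM was at most 0.212 beside the added 1.

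Cell type markers were set beside this list. In MG vs. GC the medians were -0.27 for hepatocyte, -0.22 for stellate cell and -0.14 for Kupffer cell markers, with 1 of 6 (Tat), 1 of 6 (Col1a1, -1.79 ± 0.38) and 0 of 7 called, all lower. Col1a1, a collagen gene, was named after its value was seen. The erythroid and cholangiocyte medians lay further below 0. Those of the 6 sinusoidal endothelium markers (0.17) and of the 2 T and NK cell markers tested (0.35) lay above 0, with 0 called in each. The stellate cell markers summed to 103 to 127 TPM in MG, 98.9 to 129 TPM in A1G and 89.0 to 111 TPM in GC livers. Kupffer cell markers summed to 105 to 109, 90.8 to 160 and 87.8 to 136 TPM. Hepatocyte and stellate cell sums in MG livers overlapped those of GC livers and reached above them, although their medians lay below 0. The endothelial markers summed to 72.8 to 92.6 TPM in MG, 81.9 to 101 TPM in A1G and 50.5 to 79.8 TPM in GC livers. The 5 erythroid markers summed to 421 to 666 TPM in MG, 334 to 1130 TPM in A1G and 601 to 823 TPM in GC livers, and the 5 cholangiocyte markers to 21.3 to 27.3, 25.7 to 46.3 and 24.6 to 44.8 TPM. Their medians in MG vs. GC were -0.70 and -1.17 on the log2 scale, with 0 of 5 passing in each in edgeR and 3 of 5 in each at an unadjusted p under 0.05. T and NK cell markers summed to 2.27 to 4.18 TPM in MG, 2.39 to 2.78 in A1G and 1.02 to 3.66 in GC livers, B cell markers to at most 1.23 TPM and neutrophil markers to at most 5.36 TPM, with Ly6g at 0 in every library. The part of these cells in the division genes was not tested.

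**Figure D4:**
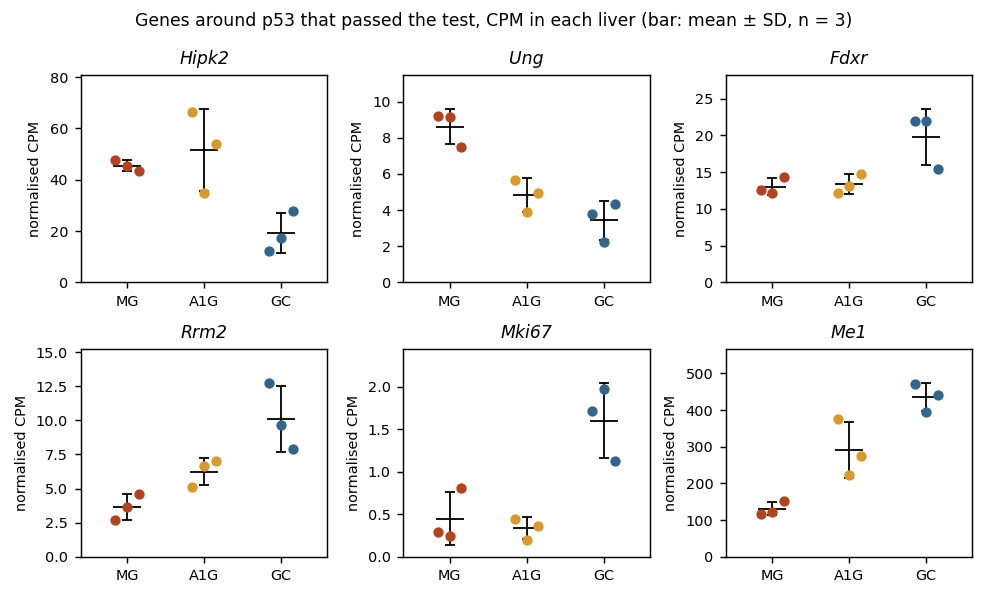
TMM-normalised CPM of Hipk2, Ung, Fdxr, Rrm2, Mki67 and Me1 (y axes, from 0) in each of 3 MG, 3 A1G and 3 GC livers (points), with mean and SD as bars. Hipk2 is above GC in all 6 flown livers, Ung is higher in each MG liver than in every other liver, and Rrm2 and Me1 are ordered MG below A1G below GC.

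Other stress pathways that share targets with p53 were counted in the same way. Of 16 targets of ATF4 and CHOP, factors of the amino acid and unfolded protein response, 14 were tested and 0 passed in any comparison in edgeR, with 5, 1, 5 and 3 at an unadjusted p under 0.05 in the 4 comparisons. DESeq2 called 2, 1, 0 and 1 of them, all higher, and limma 0. Of 10 targets of the oxidative stress factor NRF2, 9 were tested. Of these, 2 rose and 1 fell in MG and also in flown livers against GC, 1 fell in MG vs. A1G, and 0 passed in A1G vs. GC in edgeR, where 8 had an unadjusted p under 0.05, DESeq2 called 6 and limma 0. The genes that rose were Gclm, the regulatory subunit of glutathione synthesis, at 0.52 ± 0.11 in MG vs. GC (adjusted p = 0.0232, edgeR), and Gsr, glutathione reductase, at 0.57 ± 0.14 (adjusted p = 0.0462). Without GC replicate 2 these had adjusted p of 0.124 and 0.177. The Gclm call was also lost without any 1 of the MG livers, and of the 9 fits with 1 library left out, the Gsr call was kept in the 1 without A1G replicate 1. The gene that fell was Me1, malic enzyme, which also serves fat synthesis. Me1 measured 118, 123 and 151 CPM in MG, 375, 224 and 274 CPM in A1G and 470, 395 and 440 CPM in GC livers. No 2 groups overlapped, and the log2 fold change was -1.74 ± 0.18 in MG vs. GC (adjusted p = 0.000506, edgeR), past the threshold in 17 of 17 alternatives.

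Of 15 glucocorticoid and fasting targets, all were tested. Against GC, 1 fell in MG mice (Tat), 1 in A1G mice (Tsc22d3) and 3 in flown mice (Tat, Tsc22d3 and Foxo3), and 0 passed in MG vs. A1G in edgeR, where 6 had an unadjusted p under 0.05, DESeq2 called 3, all higher, and limma 0. Against GC, DESeq2 called 3 lower and 1 higher in MG, 4 lower in A1G and 3 lower in flown mice, and limma on log2(TPM + 1) called 0 in each, so that none of these calls held on the TPM scale. Tat, tyrosine aminotransferase, was -0.71 ± 0.12 in flown mice vs. GC (adjusted p = 0.0093, edgeR), and this call was lost without GC replicate 2 (adjusted p = 0.073). Tsc22d3, the glucocorticoid-induced leucine zipper, measured 83.3, 97.9 and 124 CPM in MG and 67.6, 86.7 and 63.2 CPM in A1G livers, against 158, 181 and 117 CPM in GC livers. It was -1.07 ± 0.19 in A1G vs. GC (adjusted p = 0.036, edgeR), a call lost without MG replicate 2, A1G replicate 1 or 3, or GC replicate 1 or 2 (highest adjusted p = 0.165). Foxo3, a transcription factor that can raise Bbc3, measured 43.8, 38.7 and 44.6 CPM in MG and 33.8, 46.8 and 43.1 CPM in A1G livers, against 52.3, 60.3 and 71.9 CPM in GC livers. All flown livers were below all GC livers (-0.56 ± 0.13, adjusted p = 0.0373, edgeR), and the call was kept in 2 of 9 fits with 1 library left out, those without A1G replicate 1 or 2.

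**Figure D5:**
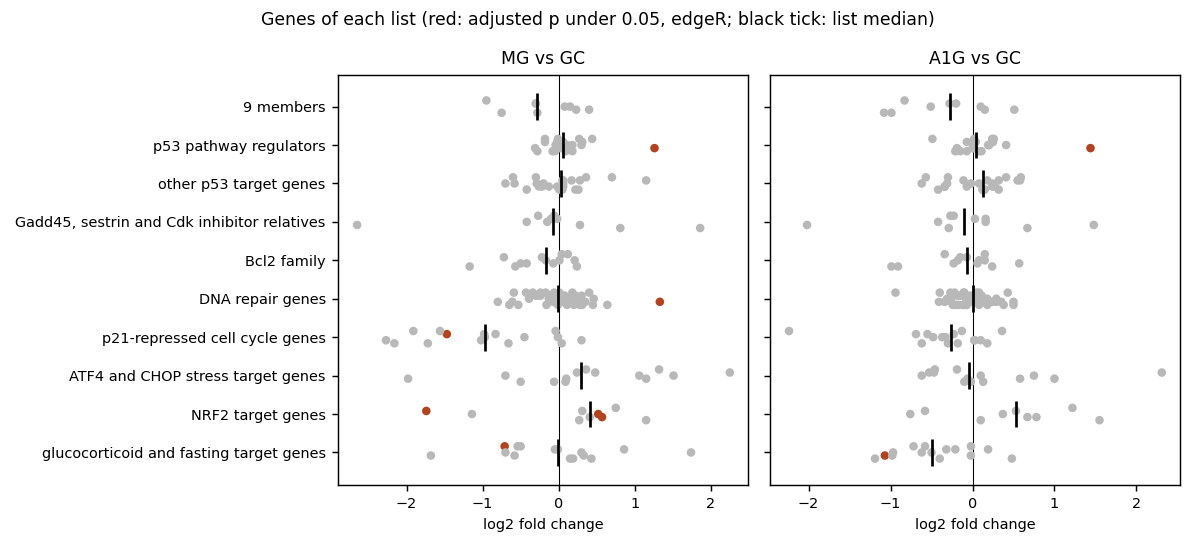
Log2 fold changes (x axis) of the 9 genes and of each tested gene of the 9 pathway lists in MG vs. GC (left) and A1G vs. GC (right), with black ticks at list medians and red points for an adjusted p under 0.05. None of the 9 genes is red, Hipk2 is the red point among the regulators in both panels, and the division genes have a median of -0.98 in MG vs. GC.

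The gene of lowest p among the 9, Trp53inp1, was also used to find genes of like pattern over the 9 libraries. The highest Pearson's r of log2 CPM were those of D3Ertd751e (0.958), Pck1 (0.954) and Ip6k2 (0.929), and the lowest those of Ppp1r10 (-0.97), Srp19 (-0.96) and Chchd4 (-0.932). These are a description across 9 libraries of 3 groups, which share depth and group means. Pck1, the fasting-induced enzyme of gluconeogenesis, measured 1210, 1280 and 2930 CPM in MG, 372, 617 and 775 CPM in A1G and 1440, 1260 and 1320 CPM in GC livers. As for Trp53inp1, MG replicate 3 was the highest liver and all A1G livers were below the others, and the log2 fold change of Pck1 in MG vs. A1G was 1.62 ± 0.33 (adjusted p = 0.0893, edgeR).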

How the data were processed

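Poly(A) RNA of 9 livers was made into directional libraries and sequenced. According to the methods and the submitters' processing notes, reads were trimmed with fastp 0.19.4, and the authors ran Salmon 0.9.1 for quantification on GRCm38. They deposited 1 table of estimated counts and 1 table of TPM per gene. The annotation release is not given in the sources used here. The deposited tables of the authors' DESeq2 comparisons hold fold changes and p-values, and only their gene IDs and symbols were used.

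Estimated counts were rounded and fitted in R 4.3.3 with edgeR 4.0.16 (quasi-likelihood, TMM, filterByExpr with a minimum count of 10, all 9 libraries, 1 coefficient per group). Of 20550 genes with any count, 13193 were tested, holding 99.94% of counts. The residual degrees of freedom were 6. Benjamini-Hochberg adjustment ran across the 13193 genes, and an adjusted p under 0.05 was called. Standard errors came from the F statistic and the fold change without shrinkage, and 95% intervals from 11.7 degrees of freedom. Log2 CPM used a prior count of 2. Strand use in counting is not given, so overlapping genes are uncertain. "Rose" and "fell" are used of called genes. P-values weigh a difference between groups against the spread between mice of a group. Variation between flights or between ground runs was not measured.

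Alternatives were RLE size factors, library size only, no filter, DESeq2 1.42.0, limma 3.58.1 on log2(TPM + 1) or log2(TPM + 0.1) (1 TPM or more in 3 libraries, or unfiltered), a replicate block, and each library left out. The procedure was tested on simulated data. From each list, up to 4 called genes per comparison were named, or else that of lowest p, and for the member of lowest p the 3 genes of highest and 3 of lowest r. Some genes so chosen are not described. The members were picked by name and the lists by function, both with earlier results of these data known.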

Additional observations from a re-analysis of the deposited data

Results flagged for a closer look

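For Me1 the effect of flight differed between microgravity and artificial gravity by the test of the difference itself, which here is MG vs. A1G: the log2 fold change was -1.16 ± 0.18 (adjusted p = 0.0423, edgeR), lower in 3 of 3 MG livers than in every A1G liver. It was kept without A1G replicate 1 or MG replicate 3 (lowest adjusted p = 0.0222) and lost without each of the other libraries (highest adjusted p = 0.167). Over all alternatives the call was kept in 6 of 17. It was lost with library size alone and on each TPM scale, with an adjusted p of 0.304 in limma on log2(TPM + 1) without a filter. The difference between microgravity and artificial gravity thus depended on the scaling.

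For Mcm2, a subunit of the replicative helicase, MG and A1G livers lay on opposite sides of the mean of the GC livers, with log2 CPM means that differed by -1.86 between MG and A1G. Mcm2 measured 0.635, 0.539 and 1.47 CPM in MG, 3.72, 2.61 and 3.32 CPM in A1G and 2.15, 2.11 and 3.29 CPM in GC livers. Against GC, Mcm2 was -1.56 ± 0.40 in MG livers (adjusted p = 0.0578, edgeR) and 0.36 ± 0.35 in A1G livers (adjusted p = 0.679, edgeR). A1G and GC livers overlapped in CPM, so a rise in A1G livers was not shown. Opposite directions against GC were not tested as such. The fitted difference of MG vs. A1G, -1.92 ± 0.39, had an adjusted p of 0.0887 in edgeR and passed in 3 of 17 alternatives. In TPM, MG and A1G livers overlapped.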

How the results depend on the processing

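RLE size factors and DESeq2 turned no fold change of the 9 genes round. On the TPM scales (log2(TPM + 1), log2(TPM + 0.1), and log2(TPM + 1) without a filter) these turned positive: Cdkn1a in MG vs. GC (0.11, 0.12 and 0.11), Bax (0.11 in each) and Sesn2 (0.01, 0.02 and 0.01) in A1G vs. GC, and Bax (0.03 in each) and Trp53inp1 (0.09, 0.10 and 0.09) in flown mice vs. GC. Sesn2 in flown mice vs. GC became 0.00 with log2(TPM + 0.1), and Phlda3 in MG vs. A1G became -0.02 with log2(TPM + 1) with and without a filter. The TPM scales move the median of all genes by 0.24 or 0.27 against GC. With that shift removed on log2(TPM + 1), the values against GC were again negative: -0.12 for Cdkn1a, -0.13 and -0.21 for Bax, -0.22 and -0.24 for Sesn2 and -0.14 for Trp53inp1. None had passed the test.

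Leaving out 1 library turned round some small values, which ranged from -0.66 to 0.24 for Cdkn1a and from -0.15 to 0.31 for Trp53inp1 in MG vs. GC. Between MG and A1G they ranged from -0.06 to 0.18 for Mdm2, -0.08 to 0.02 for Ccng1, -0.78 to 0.14 for Bbc3, -0.13 to 0.82 for Phlda3, -0.44 to 0.08 for Gadd45a and -0.14 to 0.09 for Sesn2. The number of the 9 genes called ranged from 0 to 1 in MG vs. GC and in flown mice vs. GC. Without a filter on low counts it was 1 in A1G vs. GC and 1 in flown mice vs. GC.

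The number of all genes called depended on the setting. In MG vs. GC, A1G vs. GC, MG vs. A1G and flown mice vs. GC it was 803, 384, 188 and 790 without a filter and 861, 395, 164 and 801 in DESeq2. Limma called 402, 16, 0 and 449 with log2(TPM + 1), 272, 13, 0 and 337 with log2(TPM + 0.1), and 360, 1, 0 and 427 without a filter. Library size alone gave 1 in MG vs. A1G and 614 in flown mice vs. GC. With 1 library left out the numbers ranged from 181 to 642, 4 to 204, 0 to 48 and 109 to 706. The cause was not tested. Replicate numbers mark separate mice, and libraries of the same number correlated by -0.008 to 0.114 in their deviations. A replicate block gave 509, 145, 44 and 507 genes and 0 of the 9 in each comparison. Phlda3 had 5 to 28 estimated counts per library, which limits its precision.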
